A study of Homo sapiens with 4 samples.

Results

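The 6 genes at the margin of cholesterol synthesis were followed across HepG2 and PLC/PRF/5 liver cancer cells with and without PF-429242: TM7SF2, LBR, HSD17B7, TMEM97, MMAB and RDH11. They are 6 of the 32479 genes measured, chosen by name as redundant sterol reductases and as genes known to follow SREBP-2 outside the main pathway, and each was matched by symbol to 1 Ensembl identifier. HepG2 is a human hepatoblastoma-derived line, and PLC/PRF/5 comes from a human hepatoma with hepatitis B virus sequence integrated in its genome. The labels give both as wild type, grown in the same serum-supplemented medium. Each line gave 1 library from an untreated control at 24 h and 1 library after 24 h in 20 uM PF-429242, 4 libraries in all. The labels name no vehicle in the controls. PF-429242 inhibits site-1 protease, the Golgi enzyme that makes the first cut in releasing the SREBPs from the membrane.

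SREBP-2 is the transcription factor that sterol-starved cells use to raise cholesterol synthesis and uptake. It is held in the endoplasmic reticulum while sterol is plentiful, moves to the Golgi when sterol falls, and enters the nucleus only after site-1 and site-2 protease have cut it free. The liver makes much of the cholesterol of the body, and hepatocyte-derived lines keep the whole route. Of the 6 genes, TM7SF2 and LBR encode a pair of enzymes that both reduce the C14 double bond left when lanosterol loses a methyl group. TM7SF2 sits in the endoplasmic reticulum, while LBR, the lamin B receptor, spans the inner nuclear membrane and also binds lamin and heterochromatin. HSD17B7 reduces the 3-keto group in the removal of the C4 methyl groups; it can also reduce estrone to estradiol. TMEM97, the sigma-2 receptor, is a membrane protein that binds the lysosomal cholesterol transporter NPC1. MMAB makes adenosylcobalamin in mitochondria, and RDH11 reduces retinal to retinol in the endoplasmic reticulum.

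The libraries held 16722204 to 21387301 fragments, and 11428 to 12441 genes reached 1 FPKM (fragments scaled by the length of the gene and by the fragment total of the library) in each. Mitochondrially encoded genes took 16.6% of fragments in the HepG2 control and 27.6% in treated HepG2, and 21.3% and 28.2% in PLC/PRF/5. The median log2 ratio of treated to control over all genes stood at -0.17 in HepG2 and at -0.13 in PLC/PRF/5. With totals without mitochondrial genes it was -0.01 in HepG2 and -0.02 in PLC/PRF/5. What raised the mitochondrial share was not tested. In the treated PLC/PRF/5 library, 16 protein-coding genes were lower by 2-fold or more while their log2 ratio in HepG2 was above -0.5. None of the 6 genes could be among them, since the highest of their HepG2 log2 ratios was -0.56. In treated PLC/PRF/5, 9 genes with symbols beginning in RRP and a number held 871 fragments, against 10160 in the PLC/PRF/5 control. The same genes held 6437 and 7075 fragments in control and treated HepG2. The hepatocyte markers ALB, APOA1, APOB, TTR, SERPINA1, HNF4A and AFP were all above 1 FPKM in all 4 libraries, with sums of 9206 and 7967 FPKM in control and treated HepG2 and 2188 and 2917 FPKM in PLC/PRF/5. Fibroblast markers summed to at most 0.968 FPKM and endothelial markers to at most 1.37 FPKM. Of the blood cell markers, CD3E was at 0 in 3 libraries and at 0.0207 FPKM in treated PLC/PRF/5. COL1A2, PTPRC and HBB were not analysed here.

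All 6 genes were lower with PF-429242 in both lines, MMAB, HSD17B7 and TM7SF2 most and LBR and TMEM97 least. The median log2 ratio over all genes was also below 0 (-0.17 and -0.13), so direction alone does not set the 6 apart. In HepG2 the treated level divided by the control level ran from 0.196 for MMAB to 0.670 for LBR. The range in PLC/PRF/5 was from 0.316 for MMAB to 0.634 for TMEM97. On the log2 scale of (FPKM + 1), 5 of the 6 were lower by 2-fold or more in HepG2, against 2.14% of all 12347 genes that reached 1 FPKM in at least one of the pair of libraries and 0.651% of the 9992 protein-coding ones. In PLC/PRF/5 2 of the 6 were, against 1.82% of 13144 genes and 0.377% of 10611 protein-coding ones. These counts depend on the scale: under median-of-ratios scaling they were 3 and 0, TMEM97 and RDH11 losing the call in HepG2, and with a pseudocount of 5 both were 0. Each group held 1 library, so these differences have no replicate check. The 95% intervals beside the ratios hold counting error alone, and no molecular identifiers show which fragments are separate molecules; they set one library against another, not one condition against another. In bulk RNA, fewer expressing cells and less RNA per cell cannot be told apart.

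TM7SF2 (ENSG00000149809, chromosome 11, 65111845 to 65116384 on GRCh38), the reductase of the endoplasmic reticulum, stood at 7.90 FPKM in untreated HepG2 and 2.32 FPKM with PF-429242, and at 9.26 and 4.25 FPKM in PLC/PRF/5. Both treated libraries lay below both controls. The ratio was 0.294 in HepG2 (95% counting interval 0.244 to 0.353), from 450 and 161 fragments. For PLC/PRF/5 the ratio was 0.459 (0.395 to 0.532), from 675 and 246 fragments. With 1 FPKM added, HepG2 gave a log2 ratio of -1.42 and PLC/PRF/5 one of -0.97, the latter just short of 2-fold although the plain ratio was past it, since the added 1 FPKM shrinks the change of a low gene.

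LBR (ENSG00000143815, chromosome 1, 225401502 to 225428925), the reductase of the nuclear membrane, was several times more abundant per length. Its level was 31.5 FPKM without and 21.1 FPKM with PF-429242 in HepG2, and 47.0 and 28.9 FPKM in PLC/PRF/5. Both treated libraries lay below both controls, treated PLC/PRF/5 just under untreated HepG2. The ratio was 0.670 in HepG2 (0.635 to 0.706) and 0.614 in PLC/PRF/5 (0.587 to 0.643). LBR was the member least lowered in HepG2, with a log2 ratio of -0.56, and 3.03% of protein-coding genes were as low or lower. In PLC/PRF/5 its log2 ratio was -0.68, and 1.35% of protein-coding genes were as low or lower.

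The pair held relatively less TM7SF2 with PF-429242 in both lines. TM7SF2 made up 20.0% of their summed FPKM in the HepG2 control (95% counting interval 18.5 to 21.7) and 9.91% in treated HepG2 (8.53 to 11.4). In PLC/PRF/5 it made up 16.5% (15.4 to 17.6) in the control and 12.8% (11.4 to 14.4) with PF-429242. The share was lower in the treated library of each line, and within a line the intervals did not overlap. As a ratio within a library, this share does not depend on how libraries are scaled, but its level does depend on the gene lengths used. By fragments, with no scaling by length, it was 13.0% and 6.16% in HepG2 and 10.5% and 8.08% in PLC/PRF/5. The length behind the FPKM of LBR was a fitted 5710 bases against 5257 annotated, which the intervals do not cover. Together the pair stood at 39.4 FPKM in untreated and 23.4 FPKM in treated HepG2, a ratio of 0.594. In PLC/PRF/5 it stood at 56.2 and 33.1 FPKM, a ratio of 0.589. LBR was at 3.99 times the level of TM7SF2 in the HepG2 control and 9.09 times with PF-429242, and at 5.07 and 6.79 times in PLC/PRF/5.

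**Figure D1:**
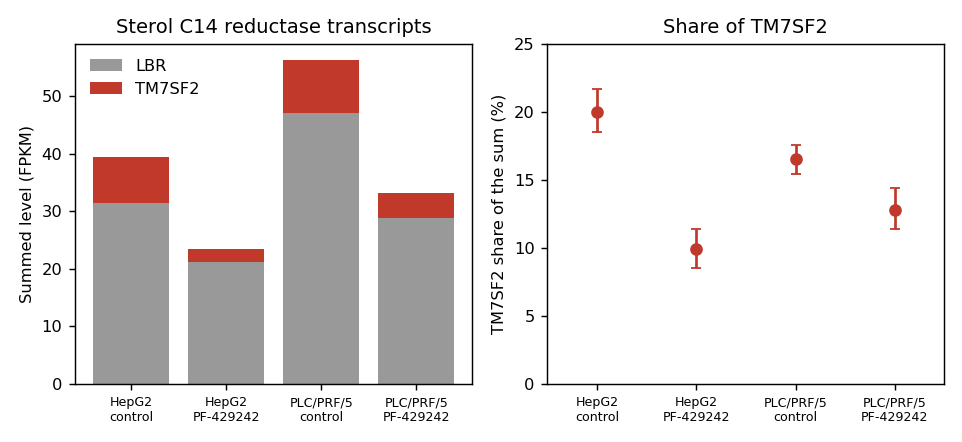
Left, summed FPKM of the C14 sterol reductase genes LBR (grey) and TM7SF2 (red) in each of the 4 libraries, as stacked bars from 0. Right, the share of TM7SF2 in that sum in percent, with 95% counting intervals; it is 20.0% and 9.91% in control and treated HepG2 and 16.5% and 12.8% in PLC/PRF/5.

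HSD17B7 (ENSG00000132196, chromosome 1, 162790702 to 162812817), the 3-ketosteroid reductase, was at 6.47 FPKM without and 1.57 FPKM with PF-429242 in HepG2, and at 4.77 and 1.87 FPKM in PLC/PRF/5. Both treated libraries lay well below both controls, and close to each other. The ratio was 0.243 in HepG2 (0.202 to 0.292) and 0.393 in PLC/PRF/5 (0.325 to 0.473), and the log2 ratios were -1.54 and -1.0, the latter just past 2-fold. HSD17B7P2, an unprocessed pseudogene of it on chromosome 10, was measured at 4.57 and 1.50 FPKM in HepG2 (ratio 0.329, 0.228 to 0.466) and 2.45 and 1.25 FPKM in PLC/PRF/5 (ratio 0.510, 0.327 to 0.778). Its direction in each line was that of HSD17B7. The copies are close in sequence, and how reads that fit both were assigned is not known, so the split of fragments between gene and pseudogene is uncertain.

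TMEM97 (ENSG00000109084, chromosome 17, 28319095 to 28328685), the sigma-2 receptor, was the most abundant of the 6 in HepG2. It stood at 49.5 FPKM in the HepG2 control and 23.0 with PF-429242, and at 32.1 and 20.4 FPKM in PLC/PRF/5. Both treated libraries lay below both controls. The ratio was 0.465 in HepG2 (0.435 to 0.497) and 0.634 in PLC/PRF/5 (0.588 to 0.684). Its log2 ratio in PLC/PRF/5, -0.63, was the one nearest to 0 among the 6 in that line.

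MMAB (ENSG00000139428, chromosome 12, 109553737 to 109573874), the cobalamin adenosyltransferase, was the scarcest of the 6 in each library. It was at 4.75 FPKM without and 0.931 FPKM with PF-429242 in HepG2, and at 3.0 and 0.949 FPKM in PLC/PRF/5. The treated libraries were nearly level, at 114 and 97 fragments, and the controls stood well above them, at 478 and 386 fragments. The ratio was 0.196 in HepG2 (0.158 to 0.241) and 0.316 in PLC/PRF/5 (0.251 to 0.396), the lowest of the 6 in both lines. The log2 ratios of (FPKM + 1) were -1.57 and -1.04. MMAB reached the minimum of 1 FPKM through the controls alone.

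RDH11 (ENSG00000072042, chromosome 14, 67676801 to 67695814), the retinal reductase, was at 20.6 and 8.68 FPKM in control and treated HepG2 and at 21.4 and 11.7 FPKM in PLC/PRF/5. The controls of the lines were nearly level and both treated libraries lay below them. The ratio was 0.422 in HepG2 (0.390 to 0.456) and 0.547 in PLC/PRF/5 (0.509 to 0.588), and the log2 ratios were -1.16 and -0.82.

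**Figure D2:**
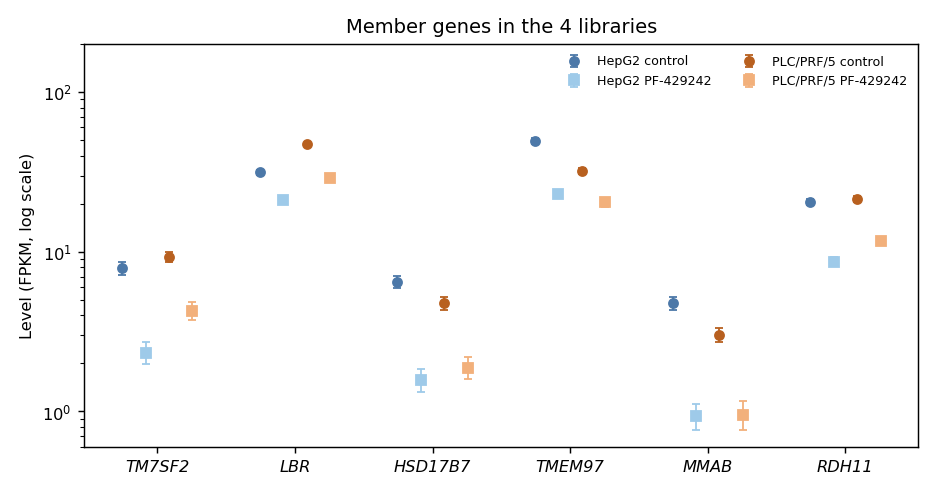
Levels of the 6 genes in FPKM (log axis) in each library, control libraries as circles and treated libraries as squares, HepG2 in blue and PLC/PRF/5 in orange, with 95% counting intervals. In each line the treated library sits below the control for each gene, from MMAB (4.75 and 0.931 FPKM in HepG2) to TMEM97 (49.5 and 23.0 FPKM).

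Levels can be compared between these genes because FPKM is scaled by length, as far as the lengths hold. For LBR, TMEM97, MMAB and RDH11 the length was a fitted one (for MMAB 6018 bases against 6290 annotated), which the counting intervals do not cover. Nor do they cover the uncertain split of fragments between HSD17B7 and HSD17B7P2. In the HepG2 control the order from high to low was TMEM97, LBR, RDH11, TM7SF2, HSD17B7 and MMAB, and no neighbours in it had overlapping counting intervals. Treated HepG2 kept that order, but TMEM97 at 23.0 FPKM (21.8 to 24.3) and LBR at 21.1 (20.3 to 21.9) then overlapped. In both PLC/PRF/5 libraries LBR came before TMEM97 and the other 4 followed in the same order, with no overlap between neighbours.

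Between the untreated lines none of the 6 genes differed by 2-fold or more, from which nothing is read for so few genes: 13.1% of all 13861 genes with at least 1 FPKM in either control were lower and 10.0% higher in HepG2 by that limit (11.7% and 8.42% of protein-coding genes). TMEM97 was higher in HepG2 (ratio of HepG2 to PLC/PRF/5 1.54, 1.45 to 1.63), as were MMAB (1.58, 1.38 to 1.82) and HSD17B7 (1.36, 1.20 to 1.54). LBR was lower in HepG2 (0.671, 0.642 to 0.701), and so was TM7SF2 (0.853, 0.755 to 0.962). For RDH11 the interval held 1 (0.962, 0.906 to 1.02), and its log2 ratio turned from -0.05 to 0.16 after rescaling to equal sums of FPKM. With 1 library per line these values have no replicate check.

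The response was larger in HepG2 for 5 of the 6 genes, by less than 2-fold in each case. The ratio in HepG2 divided by the ratio in PLC/PRF/5 was 0.619 for HSD17B7 (0.479 to 0.799), 0.619 for MMAB (0.458 to 0.838), 0.641 for TM7SF2 (0.508 to 0.808), 0.733 for TMEM97 (0.663 to 0.810) and 0.771 for RDH11 (0.694 to 0.856). For LBR it was 1.09 (1.02 to 1.17), the other way. On the scale of log2 (FPKM + 1), HepG2 minus PLC/PRF/5 had a median of -0.45 over the 6 genes and -0.06 over the 11062 genes with at least 1 FPKM in a library of each line. Of all these genes 1.82% had a ratio lower in HepG2 by 2-fold or more and 1.13% one higher by that much (0.661% and 0.178% of protein-coding genes). For the 5 genes, 5.12% (MMAB) to 12.4% (RDH11) of protein-coding genes had a difference as low or lower, and for LBR 83.5% had. Whether the lines differ in response could not be tested beyond counting error.

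**Figure D3:**
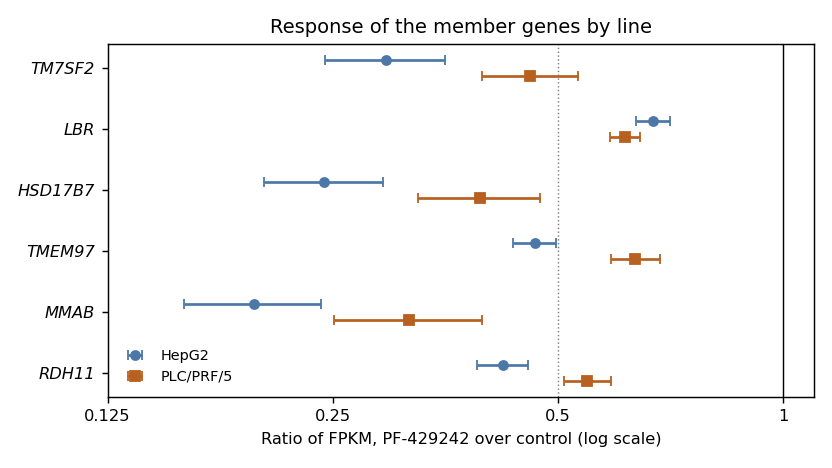
Ratio of FPKM, PF-429242 over control, for each gene in HepG2 (blue circles) and PLC/PRF/5 (orange squares) on a log axis, with 95% counting intervals; the solid line marks 1 and the dotted line 0.5. The HepG2 point is left of the PLC/PRF/5 point for 5 genes, while for LBR it is at 0.670 against 0.614.

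A shared effect over both lines was estimated with limma, in which the 2 lines are the replicates and 1 residual degree of freedom remains. The estimated log2 change of (FPKM + 1) was -1.31 for MMAB (SE 0.18), -1.27 for HSD17B7 (0.17), -1.19 for TM7SF2 (0.14), -0.99 for RDH11 (0.11), -0.85 for TMEM97 (0.13) and -0.62 for LBR (0.07), each lower in 2 of 2 lines. With Benjamini-Hochberg adjustment over all 12838 genes, the limma adjusted p was 0.193 for each of the 6, and none passed 0.05. No gene of the table passed (0% called in either direction), and limma-voom on recovered fragments also called 0. At an unadjusted p under 0.05 limma had 2488 genes, 17.5% of those tested lower and 1.90% higher, and all 6 genes were among the lower ones. After rescaling to equal sums of FPKM, which moves the median shared change of all genes to -0.42, limma called all 6 at an adjusted p of 0.0340, along with 30.5% of the genes tested. Without either PLC/PRF/5 library no test remains, and the HepG2 ratios above are the values.

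The genes of the main sterol pathway were lower still in HepG2. The lists used here were drawn up with earlier results of these data known, so their counts are descriptions. All 18 main synthesis genes were below 0 in both lines, 17 lower by 2-fold or more in HepG2 and 11 in PLC/PRF/5. Their median log2 ratio was -2.16 in HepG2 and -1.12 in PLC/PRF/5, against -1.29 and -0.89 for the 6 genes and -0.17 and -0.13 for all genes. None of the 18 passed the shared limma fit, and all 18 had an unadjusted p under 0.05. The 4 named by size were sterol methyl oxidase MSMO1 (-3.44 and -1.96), which acts with HSD17B7 and NSDHL at the C4 carbon, the isomerase IDI1 (-3.04 and -1.66), the reductase DHCR7 (-2.55 and -1.90), which resembles TM7SF2 and LBR in sequence, and HMGCS1 (-2.66 and -1.65), which makes HMG-CoA. A further pair, CYP51A1 and NSDHL, was picked after the values were seen, as the neighbours of members in the route. The step before the C14 reductases, CYP51A1, was at 2.56 and 0.473 FPKM in HepG2 and 2.57 and 1.42 FPKM in PLC/PRF/5. NSDHL, which acts with HSD17B7 at the C4 carbon in a step of its own, was at 16.5 and 4.68 FPKM in HepG2. In PLC/PRF/5 it was at 18.7 and 8.67 FPKM.

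Of the 5 scaffold and electron-donor genes of the route, ERG28, which tethers the C4 demethylation enzymes, stood at 23.5 and 4.98 FPKM in HepG2 (ratio 0.212, 0.185 to 0.243) and 12.2 and 5.86 FPKM in PLC/PRF/5 (0.479, 0.414 to 0.553). The electron donors were nearer to 0 on the log2 scale: cytochrome P450 reductase POR was at -0.22 and 0.15, CYB5R3 at -0.40 and -0.10 and CYB5B at -0.71 and -0.51. The list median was -0.40 in HepG2 and -0.10 in PLC/PRF/5, with 1 of 5 genes lower by 2-fold in HepG2 and 0 in PLC/PRF/5. Of 9 measured genes of sterol uptake and sensing, 4 in HepG2 and 5 in PLC/PRF/5 were lower by 2-fold or more, and SREBF2, which encodes SREBP-2 itself, was at -2.33 and -1.32. INSIG1, singled out after its values were seen, was at 0.0164 and 0 FPKM in HepG2. It stays among the 9 there, although it could not pass the 2-fold limit in that line. Of the 11 lipogenic SREBP genes 9 in HepG2 and 3 in PLC/PRF/5 were lower by 2-fold or more. Likewise noticed in the values, ME1 was at 0 FPKM in both HepG2 libraries, and PNPLA3 was below 1 FPKM in both PLC/PRF/5 libraries. Both stay among the 11 in each line, although neither could pass the limit in the line named.

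**Figure D4:**
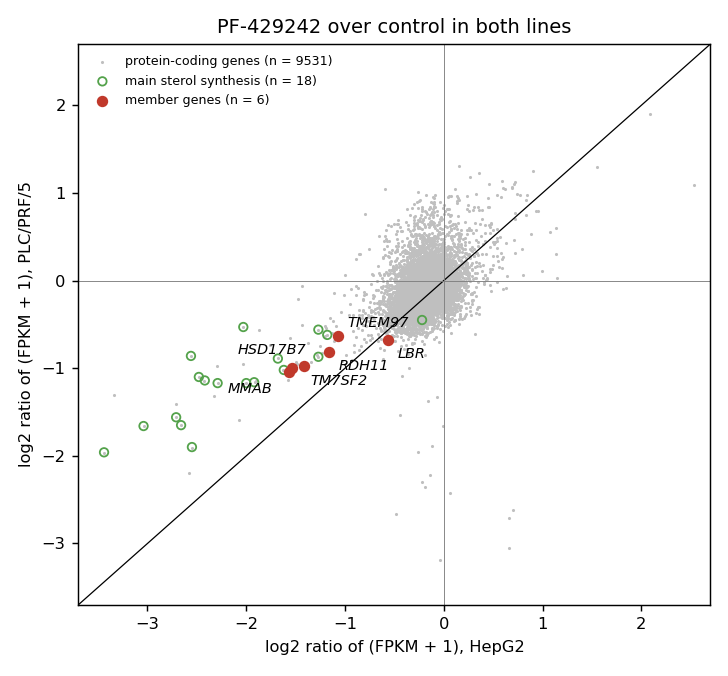
Log2 ratio of (FPKM + 1), PF-429242 over control, in HepG2 (horizontal) and PLC/PRF/5 (vertical) for 9531 protein-coding genes (grey), the 18 main sterol synthesis genes (green rings) and the 6 genes described here (red); the diagonal marks equal response. All 6 lie at or below -0.5 on both axes and are among the 117 protein-coding genes (1.23%) that do. This limit was not among the planned ones, so the count is a description. LBR is the one below the diagonal.

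LBR, HSD17B7, RDH11 and MMAB were also set beside relatives that share their other roles. For LBR these were 12 genes of the nuclear lamina and of the chromatin proteins it binds. None of them was lower by 2-fold in either line, and neither was LBR. Only 0.651% of protein-coding genes in HepG2 and 0.377% in PLC/PRF/5 were, so nothing is read from that. The medians of the 12 were -0.30 in HepG2 and -0.22 in PLC/PRF/5, and LBR was at -0.56 and -0.68. The heterochromatin protein CBX5, a binding partner of LBR, was at -0.47 and -0.59, the lamina-associated TMPO at -0.36 and -0.56, the lamin LMNB1 at -0.44 and -0.21 and the chromatin-bridging BANF1 at -0.28 and -0.35. The lowest of the 12 in each line was CBX5. Its plain ratios, 0.685 (0.640 to 0.733) in HepG2 and 0.649 (0.621 to 0.677) in PLC/PRF/5, had intervals that overlapped those of LBR.

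For HSD17B7 the 7 other measured 17-beta-hydroxysteroid dehydrogenase genes had medians of -0.05 in HepG2 and 0.02 in PLC/PRF/5. None was past 2-fold on the scale of log2 (FPKM + 1). Nothing is read from that in so short a list, since 0.651% and 0.377% of protein-coding genes were lower by 2-fold. HSD17B12, which also elongates fatty acids, was at -0.47 and -0.56, the mitochondrial HSD17B10 at -0.33 and -0.34, HSD17B2 at -0.05 and 0.67 and HSD17B14 at 0.18 and 0.14. The plain ratio of HSD17B2 in PLC/PRF/5, from 0.721 and 1.74 FPKM, was 2.41 (1.97 to 2.96). For RDH11 the 5 measured retinoid dehydrogenases and reductases ran from -0.29 to 0.17 in HepG2, and in PLC/PRF/5 from -0.12 to 0.16. Of these RDH13 was at -0.29 and -0.12, DHRS3 at 0.16 and 0.11, DHRS4 at 0.02 and 0.16 and RDH14 at -0.01 and -0.08. RDH11 itself was at -1.16 and -0.82 on the same scale.

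For MMAB the 11 measured genes of cobalamin handling and of the enzymes that use it had medians of -0.13 and -0.08. None was past 2-fold, from which again nothing is read, as 0.651% and 0.377% of protein-coding genes were lower by 2-fold. The mutase MMUT, which uses the cofactor that MMAB makes, was at -0.71 and -0.42, while the epimerase MCEE, which feeds it, was at 0.25 and 0.60. The carboxylase subunit PCCB was at -0.27 and -0.20 and the lysosomal LMBRD1 at -0.13 and -0.29. No gene of the lists set beside LBR, HSD17B7, RDH11 and MMAB passed the shared limma fit. Since no gene of the table passed it, this does not set them apart from the 6 genes. An unadjusted limma p under 0.05 was held by 7 of the 12 nuclear lamina and chromatin genes and 2 of the 7 HSD17B genes. The same held for 0 of the 5 retinoid genes and 2 of the 11 cobalamin genes, against all 6 members and 19.4% of all genes tested.

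**Figure D5:**
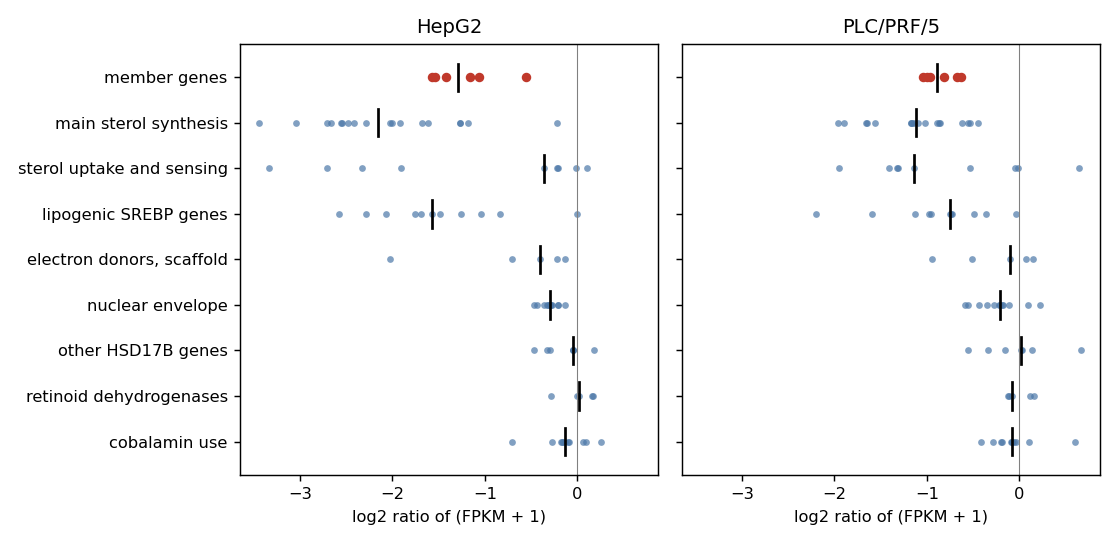
Log2 ratio of (FPKM + 1), PF-429242 over control, of the 6 genes (red) and of the measured genes of each list (blue) in HepG2 (left) and PLC/PRF/5 (right); black ticks mark medians. The medians of the 6 genes are -1.29 and -0.89, those of the main sterol synthesis genes -2.16 and -1.12, and those of the cobalamin genes -0.13 and -0.08.

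Neighbouring genes differed in how far they shared the change. MMAB and MVK, the mevalonate kinase gene, are transcribed away from each other on chromosome 12, with RefSeq starts 290 bases apart, and share a promoter region. MVK was at 5.03 and 0.477 FPKM in HepG2 (546 and 63 fragments, ratio 0.0948, 0.0719 to 0.123) and 5.56 and 3.55 FPKM in PLC/PRF/5 (772 and 391 fragments, ratio 0.638, 0.563 to 0.721). MVK was thus lower relative to its control than MMAB in HepG2 and less so in PLC/PRF/5, where the MMAB ratio was 0.316. The annotated genes overlap by 620 bases on opposite strands, and the labels do not say if strand was kept, so fragments in the overlap may be split between them.

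The other neighbours were nearer to their controls than MVK in each line, on the scale of log2 (FPKM + 1). VPS51, whose end overlaps the start of TM7SF2 by 16 bases, was at -0.28 in HepG2 and -0.10 in PLC/PRF/5, and ZNHIT2, which has the nearest protein-coding start, at -0.50 and -0.42. The plain ratio of ZNHIT2 was 0.533 (0.305 to 0.915) in HepG2, from only 37 and 24 fragments. It was 0.690 (0.507 to 0.932) in PLC/PRF/5. IFT20, which overlaps the end of TMEM97 by 361 bases on the other strand, was at -0.39 and -0.28. Its plain ratios were 0.686 (0.542 to 0.866) in HepG2 and 0.771 (0.621 to 0.954) in PLC/PRF/5. ENAH, the protein-coding gene with the start nearest to that of LBR, 224217 bases away, was at -0.23 and 0.16. AL049779.1, which overlaps RDH11 on the same strand, had at most 4 fragments in any library. For HSD17B7 the gene with the nearest start, CCDC190, was not analysed here.

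The promoters of the 6 genes were read from RefSeq (GRCh38.p14) for letters tied to SREBP binding, in a window of 250 bases before to 50 after each start, on both strands. All 6 were matched by symbol. The classical sterol regulatory element, searched letter for letter, and the looser TCACNCCAC occurred in none of the 6, in none of 13 main synthesis promoters, and in 0.0476% and 1.15% of the 27305 promoters of the table. No match says only that these letters are not in this window. A run with at most 2 mismatches to the classical element was present in HSD17B7 (CTCACCCGAC), MMAB (GTCACCCCGC) and RDH11 (ATGATCCCAC), in 3 of the 13 main synthesis promoters and in 22.6% of all, while the best run in TM7SF2, LBR and TMEM97 had 3 mismatches, which 86.5% of promoters match or better. CCAAT, the letters bound by NF-Y, a partner of SREBP, were present in 5 of the 6 (all but LBR), in 10 of the 13 main synthesis promoters, and in 35.7% of all promoters. MMAB held 5 of them, where 0.403% of promoters hold 5 or more, and TMEM97 held 3, where 3.42% hold 3 or more. GGGCGG, the GC box of SP1, was in 4 of the 6, in 12 of the 13 main synthesis promoters and in 44.6% of all. Matches are descriptions of letters, not binding sites.

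The 250 bases upstream of 4 of the genes are shown because they hold the contrast among the reductases and the lowest ratios: TM7SF2 (chr11:65111622-65111871, + strand), LBR (chr1:225428822-225429071, - strand), HSD17B7 (chr1:162790452-162790701, + strand) and MMAB (chr12:109573505-109573754, - strand). Starts here are those of RefSeq. By the gene positions given above, the MMAB run lies wholly inside its gene and the TM7SF2 and LBR runs partly. What counts as upstream thus depends on the start used. Capitals mark CCAAT or its reverse ATTGG and, where it has at most 2 mismatches, the first-found run closest to the classical element. Tied runs are not marked: in MMAB, ctggggtgag (CTCACCCCAG on the other strand) also has 2 mismatches.
TM7SF2: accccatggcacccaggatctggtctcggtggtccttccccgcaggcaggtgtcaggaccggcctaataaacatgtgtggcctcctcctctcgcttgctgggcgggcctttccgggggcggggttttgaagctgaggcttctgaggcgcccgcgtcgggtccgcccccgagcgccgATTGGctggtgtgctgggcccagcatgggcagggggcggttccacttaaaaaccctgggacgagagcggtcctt
LBR: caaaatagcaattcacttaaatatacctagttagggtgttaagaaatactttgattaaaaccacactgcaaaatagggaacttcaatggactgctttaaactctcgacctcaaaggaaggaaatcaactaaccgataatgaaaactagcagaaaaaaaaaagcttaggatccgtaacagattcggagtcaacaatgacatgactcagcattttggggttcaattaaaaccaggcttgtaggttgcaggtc
HSD17B7: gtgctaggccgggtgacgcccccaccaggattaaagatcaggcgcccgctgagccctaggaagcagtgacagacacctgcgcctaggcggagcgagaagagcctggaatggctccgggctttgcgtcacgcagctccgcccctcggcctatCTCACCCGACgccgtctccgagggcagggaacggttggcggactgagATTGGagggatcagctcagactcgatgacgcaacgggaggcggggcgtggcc
MMAB: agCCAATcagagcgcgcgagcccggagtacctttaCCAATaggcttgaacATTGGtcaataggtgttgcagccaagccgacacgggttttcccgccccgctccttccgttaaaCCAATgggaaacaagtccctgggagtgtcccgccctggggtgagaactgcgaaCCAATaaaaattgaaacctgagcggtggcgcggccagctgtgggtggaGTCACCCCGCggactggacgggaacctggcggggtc
The LBR run has no capitals and a GC content of 38.3% over its full window, where the TM7SF2 window is at 67.7%, HSD17B7 at 65.0% and MMAB at 61.3%. Of the windows not shown, TMEM97 is at 67.7%, with 3 CCAAT and 2 GC boxes, and its log2 ratio in PLC/PRF/5 was only -0.63. RDH11 is at 55%, with 1 CCAAT and no GC box, and its log2 ratios were -1.16 in HepG2 and -0.82 in PLC/PRF/5. A link between these letters and the response was not tested. The MMAB run carries 5 CCAAT boxes between bases -248 and -84 from its start, and a run of GTCACCCCGC at base -36. The MVK window overlaps this one by 211 bases and holds the same 5 boxes read from the other side.

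The genes most alike to each of the 6 over the 4 libraries were taken by the root mean square difference of log2 (FPKM + 1), each gene centred on its own mean, among 9055 other protein-coding genes with at least 1 FPKM in all 4 libraries. They are descriptions over 4 points that share their libraries and totals. Nearest to TM7SF2 were SREBF1, the gene of SREBP-1 (difference 0.0332), NSDHL (0.0767) and MAGED2 (0.0767). SREBF1 was at 6.54, 1.98, 7.95 and 3.70 FPKM in control and treated HepG2 and control and treated PLC/PRF/5, close to TM7SF2 in level as well. Nearest to HSD17B7 were the acetyl-CoA carboxylase ACACA (0.0419), the sterol desaturase SC5D (0.0823) and the centrin CETN2 (0.145). Nearest to MMAB were ACACA (0.0567), MAGED1 (0.0907) and CETN2 (0.134).

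For the remaining members the nearest genes were taken in the same way. Nearest to RDH11 were EBP (0.0758), the fatty acid elongase ELOVL5 (0.0953) and the calcium-binding chaperone CALR (0.117). Nearest to TMEM97 were the lysosomal acid lipase LIPA (0.0727), CLCN6 (0.0822) and FAM114A1 (0.0906). Nearest to LBR were the vesicle transport gene YIF1A (0.0430), the actin gene ACTB (0.0437) and the sialic acid synthesis gene GNE (0.0448).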

How the data were processed

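RNA from 4 cultures was sequenced, 1 library in each of 4 groups, and no library was left out. The deposited values are FPKM, made by the authors, 1 column per library matched to its sample by name. The submitters' processing notes name TopHat2 and GRCh38; versions, the counting program, the annotation and strand are not stated. GENCODE release 29 (GRCh38) supplied symbols and positions for 32354 of the 32479 identifiers.

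Whole fragments were recovered from the FPKM values. With the union of exons as length, 24452 genes (75.3%) were whole multiples of 1 fragment within 0.001 in all libraries, which gives the total of each library. For 7618 further genes (23.5%) the whole length nearest to the annotated one that gave whole fragments was used, among them LBR, TMEM97, MMAB and RDH11, and 409 (1.3%) were unsolved, none of them a member. Ratios carry 95% exact conditional binomial (Clopper-Pearson) intervals, ratios of ratios normal intervals on the log scale, and levels exact Poisson intervals. In a library 3 fragments mark the limit that a count of 0 allows, and no member came near it.

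Log2 ratios used a pseudocount of 1, which understates the change of low genes, and a minimum of 1 FPKM in either library. The shared fit used limma 3.58.1 in R 4.3.3 with trend and the cell line as a block, on genes that reached 1 FPKM in 2 or more libraries, and was tested on simulated data. Intervals and motif counts used Python 3.11.15 and scipy 1.17.1. The 6 genes, the 8 gene lists and the comparisons were chosen with earlier results of these data known. The 6 genes were named in full; of each list at most 4 were named, those with the largest mean change over the lines among genes that reached 1 FPKM in 2 or more libraries. One further list is not reported here. CYP51A1 and NSDHL fall outside this rule and were chosen after their values were seen. For each member the 3 most alike genes, the gene with the nearest protein-coding start and overlapping genes were named. Alternatives were pseudocounts of 0.1 and 5, no minimum or 5 FPKM, 3 other scalings, a 1.5-fold limit, limma without block, without trend or with robust moderation, limma-voom and an adjusted p under 0.10. At least 20 fragments was added after the data were seen.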

Additional observations from a re-analysis of the deposited data

How the results depend on the processing

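Each of the 6 genes was below 0 in both lines under each pseudocount and scaling run; the minimum of 5 FPKM left out MMAB in HepG2 and HSD17B7 and MMAB in PLC/PRF/5. How many passed 2-fold was less stable, and the cause was not tested beyond what each setting changes. In HepG2 the 5 became 0 when 5 FPKM were added before the log (0.283% of all genes), and 3 under median-of-ratios scaling (1.81%) or with totals without mitochondrial genes (2.11%). In PLC/PRF/5 the 2 became 0 with a pseudocount of 5 (0.274%), with at least 5 FPKM (4 genes left, 0.909%) or under median-of-ratios scaling (1.50%), 1 with totals without mitochondrial genes (2.16%), 5 after rescaling to equal sums of FPKM (6.61%) and 6 at a 1.5-fold limit (5.07%). With at least 20 fragments the counts stayed 5 and 2, against 0.709% and 0.590% of all genes lower by 2-fold. Between the controls 1 gene passed a 1.5-fold limit, as 43.5% of all genes did, and RDH11 turned from -0.05 to 0.16 after rescaling to equal sums. The shared limma fit called 0 of the 6 under all settings run but rescaling to equal sums, which called 6, and their adjusted p ran from 0.0340 there to 1.00 without the cell line block. The share of TM7SF2 in recovered fragments, not scaled by length, was 13.0% and 6.16% in control and treated HepG2 and 10.5% and 8.08% in PLC/PRF/5.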
